A study of Homo sapiens with 4 samples.

Results

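The genes described here carry glucose through glycolysis, the pentose phosphate pathway and the lactate step. The list held 33 genes of 16370 genes with a count in either pair of cell lines. They were chosen by name for these roles, with earlier results of these data known. All 33 were found in the Huh7 pair and 32 in the Hep3B pair, where the files list PFKP in neither line. Pyruvate kinase M appeared under its older symbol PKM2.

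RNA sequencing was carried out on total RNA of 4 human hepatoma cultures, with 1 library per culture. The established hepatoma lines Hep3B and Huh7 formed the hepatocellular carcinoma group (HCC). Hep3B-C and Huh7-C are cultures of stem-like cancer cells grown from them and formed the hepatic cancer stem cell group (HCSC). Each HCSC line was therefore set against the HCC line it came from, to ask which genes differ between stem-like and parental cells. No line had a second library, so no difference in a pair could be set against the spread between cultures.

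Glycolysis splits glucose into pyruvate, and lactate dehydrogenase turns pyruvate into lactate, which leaves the cell through monocarboxylate transporters. The pentose phosphate pathway takes glucose 6-phosphate aside to make NADPH and ribose, and the pyruvate dehydrogenase complex carries pyruvate into the mitochondrial cycle instead. Liver uses its own isoforms of several of these enzymes, such as GLUT2 (SLC2A2) and liver pyruvate kinase (PKLR), while hepatomas often carry the isoforms of dividing cells, such as HK2 and PKM2.

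Total gene counts lay between 2896418 (Hep3B) and 4641927 (Hep3B-C), and 3 counts corresponded to 0.646 to 1.04 CPM (counts scaled to the library's total gene count). All 7 hepatocyte markers were detected in every library, with summed levels of 57380.2 CPM in Hep3B and 62339.8 in Hep3B-C, against 48310 in Huh7 and 25734 in Huh7-C, of which SERPINA1 made up 40517 CPM in Huh7 and 17284 in Huh7-C. ALB was far lower in Huh7 (106.2 CPM) and Huh7-C (266.7) than in Hep3B (19541) and Hep3B-C (18469), as was AFP (5.73 and 2.77 CPM against 5584 and 905), and TTR had 13 counts in each library of the Huh7 pair. The stem cell markers PROM1 and EPCAM were lower in Hep3B-C (77.8 and 177 CPM) than in Hep3B (371 and 514 CPM), and near level in Huh7 (25.1 and 43.2) and Huh7-C (20.3 and 48.7). Of 5 fibroblast markers, 2 to 4 were detected per library, at summed levels of 9.91 to 45.0 CPM. Of 3 leukocyte markers only CD68 was detected, at 99.8 to 270.1 CPM, while PTPRC and CD3E had no row. Of 3 endothelial markers, 1 or 2 were detected, at 2.76 to 3.97 CPM in 3 libraries and 21.5 in Huh7-C. Of 3 red cell markers, 0 or 1 was detected, at 0 to 4.61 CPM.

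Fold-changes followed GC content and gene length, which touches the results of the Hep3B pair above all. Across 11338 genes of that pair, the log2 fold-change (HCSC/HCC) rose with the GC content of the transcript (Spearman 0.63) and fell with gene length (Spearman -0.43), and over 30 of the listed genes the coefficients were 0.68 and -0.47. In the Huh7 pair the coefficients with GC content were -0.06 over 11060 genes and -0.07 over 30 listed genes, and those with length were 0.32 and 0.14, of the opposite sign to the Hep3B pair. The points of each coefficient share the same pair of libraries, so these values are descriptions. For this reason each fold-change of the Hep3B pair that matters is given also with both trends removed. How far GC content and length account for these differences was not tested.

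**Figure D1:**
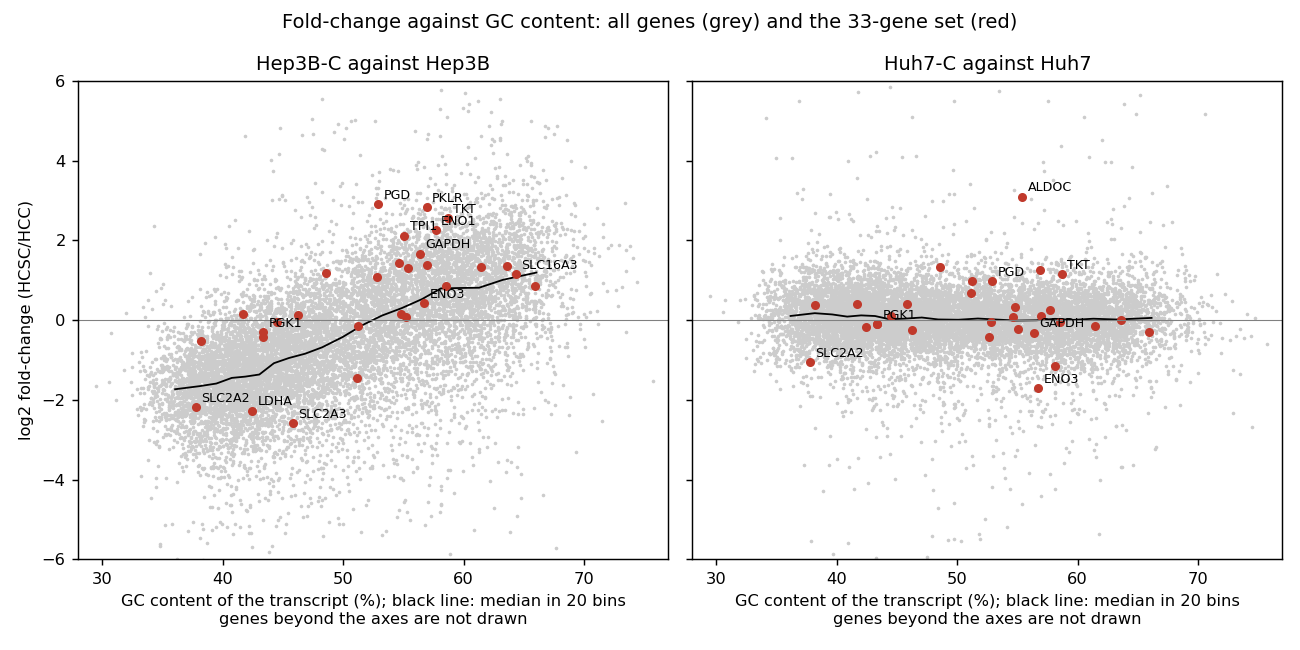
Each grey point is a gene with at least 20 summed counts in the pair, plotted by the GC content of its transcript (horizontal axis, percent) and its log2 fold-change HCSC/HCC (vertical axis), red points are the listed genes, and the black line is the median in 20 bins. In the Hep3B pair the grey cloud climbs with GC content and most red points climb with it, whereas in the Huh7 pair the line stays near 0.

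Many of the listed genes passed the test in the Hep3B pair and few in the Huh7 pair. In Hep3B-C, 14 of 32 listed genes were up-regulated and 4 were down-regulated (FDR at most 0.01, at least 2-fold), beside 13.2% of all genes up-regulated and 30.4% down-regulated. The up-regulated genes were GPI, PFKL, ALDOA, ALDOC, TPI1, GAPDH, PGAM1, ENO1, PKLR, SLC16A3, PGD, TKT, TALDO1 and RPIA, and the down-regulated genes were SLC2A2, SLC2A3, HK2 and LDHA. In Huh7-C, 3 of 33 were up-regulated (ALDOC, TKT, RPIA) and 3 were down-regulated (SLC2A2, PFKP, ENO3), beside 4.19% and 4.15% of all genes. The test (Audic-Claverie) compares the counts of 2 libraries, so it covers counting error and not the variation between cultures. In such bulk RNA, fewer cells with a transcript and less of it per cell cannot be told apart.

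The median log2 fold-change of the listed genes was 0.88 in the Hep3B pair, against -0.68 for all genes, and 0.09 in the Huh7 pair, against 0.07. Among genes with at least 20 summed counts the medians were 0.86 (30 genes) against -0.55, and 0.05 (30 genes) against 0.06. Scaling by TMM in place of the total gene count shifted every value of the Hep3B pair up by 0.60, so that 21.6% of all genes were called up and 18.1% down, and 17 listed genes up and 3 down. Such a scaling moves all genes alike and leaves the distance of the list's median from that of all genes, 1.56, as it is. Once both trends were removed, the medians were 0.73 for the list and -0.07 for all genes, 9 listed genes were called up and 1 down (11.5% and 11.6% of all genes), and 7 of the 18 original calls remained: TPI1, ENO1, PKLR, LDHA, PGD, TKT and RPIA. In the Huh7 pair TMM gave 3 listed genes up and 3 down (3.73% and 4.46% of all genes), and removal of the trends gave 5 up and 3 down (2.92% and 4.15%), all 6 original calls among them.

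ALDOC, TKT and RPIA were up-regulated and SLC2A2 was down-regulated in both HCSC lines, while none was called in opposite directions. With the trends removed, ALDOC (0.66) and SLC2A2 (-0.52) were not called in the Hep3B pair, and TKT, RPIA and PGD were called up in both. RPIA lost its Hep3B call with the length trend alone removed, or with 5 added to each count. Of 13917 genes in both pairs, 0.568% were up-regulated in both and 1.49% were down-regulated in both. Another 74 were up-regulated in Hep3B-C and down-regulated in Huh7-C, and 267 the other way round. The calls shared by both pairs were 79 genes up and 208 down, so over all genes opposite calls were no rarer than shared ones. The promoters of ALDOC, TKT, RPIA and SLC2A2 are shown. These 4 are the listed genes that passed both the FDR and the 2-fold limit in the same direction in both lines. Each runs from 250 bases before to 50 bases after the RefSeq start, 5′ to 3′ on the gene's strand (GRCh38.p14, an annotation newer than the build the reads were mapped to), at chr17:28576846-28577145 (minus strand) for ALDOC, chr2:88691423-88691722 (plus) for RPIA, chr3:53255973-53256272 (minus) for TKT and chr3:171026671-171026970 (minus) for SLC2A2. Capitals mark the core of the hypoxia response element, ACGTG or GCGTG on either strand (CACGT or CACGC when read in reverse).
ALDOC: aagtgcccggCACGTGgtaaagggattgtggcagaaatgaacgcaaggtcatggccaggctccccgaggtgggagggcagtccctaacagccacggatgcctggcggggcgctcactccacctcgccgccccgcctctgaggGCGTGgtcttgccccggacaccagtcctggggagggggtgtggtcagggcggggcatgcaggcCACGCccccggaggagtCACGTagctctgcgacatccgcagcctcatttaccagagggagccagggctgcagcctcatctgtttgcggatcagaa
RPIA: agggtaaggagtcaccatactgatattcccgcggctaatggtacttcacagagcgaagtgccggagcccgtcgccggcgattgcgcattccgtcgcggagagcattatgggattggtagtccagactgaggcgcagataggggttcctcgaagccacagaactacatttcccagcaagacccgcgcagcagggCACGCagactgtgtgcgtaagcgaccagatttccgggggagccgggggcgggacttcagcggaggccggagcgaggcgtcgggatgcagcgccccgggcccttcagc
TKT: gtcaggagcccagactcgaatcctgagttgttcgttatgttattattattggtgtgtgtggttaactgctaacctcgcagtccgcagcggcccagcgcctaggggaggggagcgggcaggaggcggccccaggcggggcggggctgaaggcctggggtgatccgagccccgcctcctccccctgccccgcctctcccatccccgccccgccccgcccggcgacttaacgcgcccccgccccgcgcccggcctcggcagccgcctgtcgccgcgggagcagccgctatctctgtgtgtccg
SLC2A2: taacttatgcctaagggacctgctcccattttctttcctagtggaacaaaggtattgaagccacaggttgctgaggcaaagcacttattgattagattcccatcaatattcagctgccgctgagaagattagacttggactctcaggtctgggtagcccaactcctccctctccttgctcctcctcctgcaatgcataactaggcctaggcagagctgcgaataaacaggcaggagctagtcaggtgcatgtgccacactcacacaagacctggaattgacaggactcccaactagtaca

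The ALDOC window held 5 matches, of which the palindrome CACGTG (the E-box) counts on both strands, RPIA held 1, and TKT and SLC2A2 held 0. Of the listed genes, 31 had a window in the table, many with several starts, and 34 of their 57 windows (59.6%) held the core. Over all promoters of the table, 48.4% of 35116 windows held it. Counted by gene, 25 of 31 listed genes and 52.4% of all 27305 genes held the core in at least 1 window. The listed genes had more windows per gene (57 for 31) than all genes (35116 for 27305). Each further window is a further chance of a match, so the by-gene values are not on a like footing. The core of the antioxidant response element, TGACNNNGC on either strand (GCNNNGTCA in reverse), searched after the data were seen, was in 7 of the 57 windows and 13.3% of all windows. PGD, whose product makes NADPH, and ALDOC were among the 7 genes that held it, and TKT and RPIA were not. A match is a string of letters and not evidence of binding.

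The genes differed widely in level, and the same few led in every library. Scaled by gene length (RPKM), GAPDH led in all 4 libraries, at 4171 RPKM in Hep3B and 13217 in Hep3B-C, against 12032 in Huh7 and 9652 in Huh7-C. ALDOA and ENO1 were among the 4 highest in each library. LDHA was second in Hep3B at 1026 RPKM and not among the first 6 in Hep3B-C at 213 RPKM. The listed genes took 1.47% of the gene counts of Hep3B and 3.68% of those of Hep3B-C, and 3.93% and 3.67% of Huh7 and Huh7-C. Without GAPDH the shares were 0.925% and 1.95%, and 2.36% and 2.40%. Hep3B was thus the low library of the 4, and Hep3B-C lay near both Huh7 libraries.

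**Figure D2:**
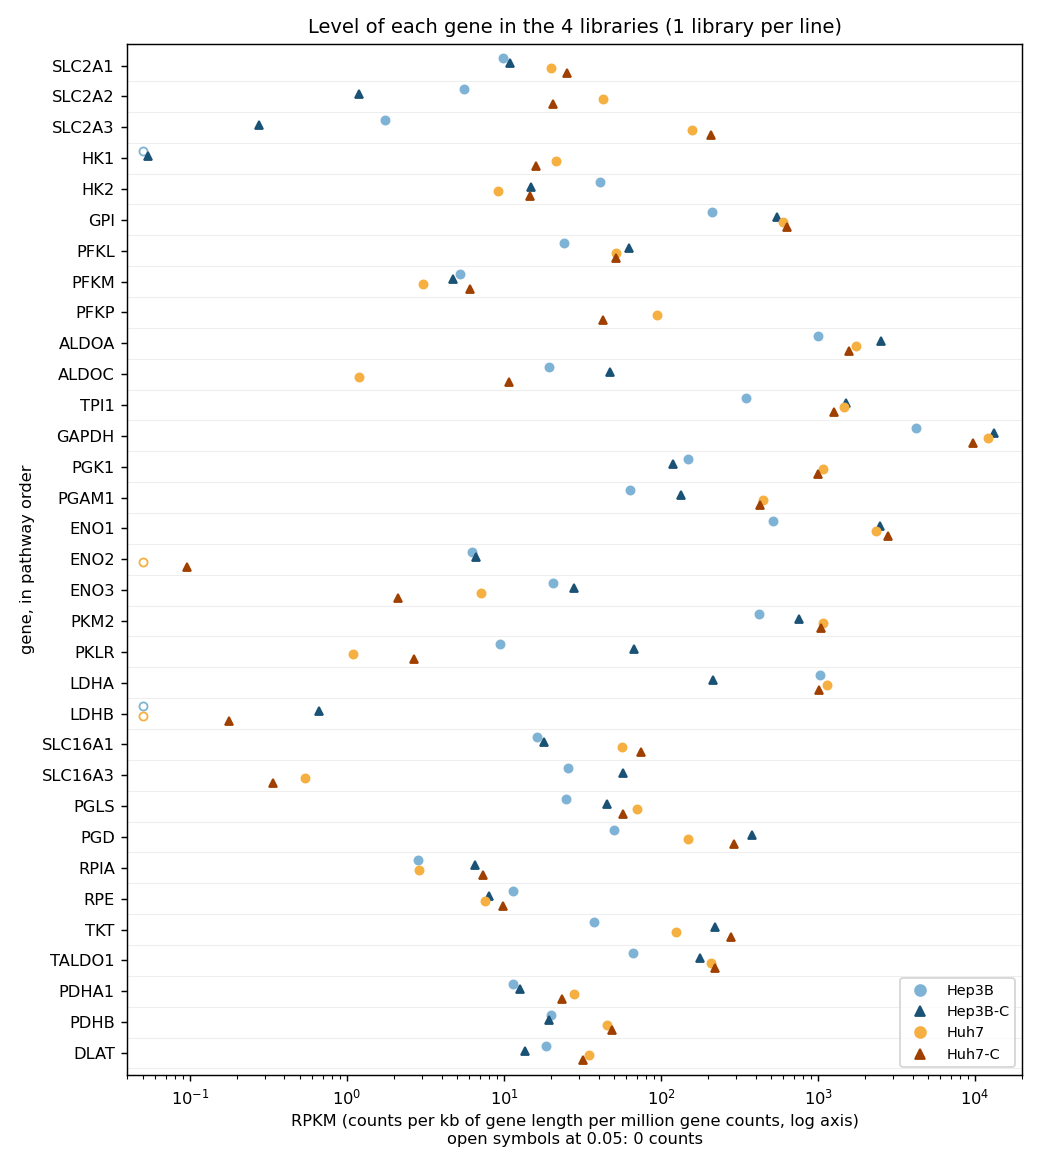
RPKM (horizontal log axis) of each listed gene, in pathway order (vertical axis), in Hep3B (light blue circles), Hep3B-C (dark blue triangles), Huh7 (orange circles) and Huh7-C (brown triangles), with open symbols for 0 counts and 1 library per point. For TPI1 the light blue circle at 348 RPKM stands left of the other 3 points at 1265 to 1514, and LDHA is the reverse case, with Hep3B-C alone at 213 and the others at 1017 to 1136.

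Glucose enters through the GLUT family. SLC2A1, the widespread GLUT1, had 35.9 CPM in Hep3B and 40.3 in Hep3B-C, against 73.2 in Huh7 and 92.8 in Huh7-C, and was not called in either pair. SLC2A2, the liver transporter GLUT2, had 19.0 CPM in Hep3B and 4.09 in Hep3B-C (55 and 19 counts), and 146.6 in Huh7 and 70.6 in Huh7-C. It was down-regulated in both lines, with log2 fold-changes of -2.19 (95% counting interval -3.05 to -1.44) and -1.05 (-1.25 to -0.86). With the trends removed these became -0.52, no longer called, and -1.13, still called. SLC2A3, the high-affinity GLUT3, was near the floor of the Hep3B pair, with 20 counts in Hep3B and 5 in Hep3B-C (6.91 and 1.08 CPM), and abundant in Huh7 (622 CPM) and Huh7-C (817 CPM). Its fold-change of -2.58 in the Hep3B pair became -1.36 with the trends removed and was then not called, and in the Huh7 pair it was 0.39 and not called. SLC2A3 has a near-identical neighbour, SLC2A14, and how reads shared by both were assigned was not stated.

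The make-up of the GLUT family differed between the lineages. SLC2A3 held 71.6% of the length-scaled level of the 3 genes in Huh7 and 81.9% in Huh7-C, but 10.3% in Hep3B and 2.20% in Hep3B-C. SLC2A1 held 57.4% in Hep3B and 88.2% in Hep3B-C (58.1% and 88.6% of the counts, exact 95% binomial intervals 50.5 to 65.4 and 83.5 to 92.6). SLC2A2 held 32.4% and 9.57% of the level in the Hep3B pair, and 19.3% and 8.11% in the Huh7 pair. With 1 library per line, the difference between the lineages has no replicate check.

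Hexokinase traps glucose as glucose 6-phosphate. HK1, the housekeeping form, had 0 counts in Hep3B and 1 in Hep3B-C, at which no fold-change can be given, against 85.1 CPM in Huh7 and 63.0 in Huh7-C. HK2, the inducible form common in tumours, had 289.7 CPM in Hep3B and 105.6 in Hep3B-C, against 64.6 in Huh7 and 104.1 in Huh7-C. It was down-regulated in Hep3B-C (log2 fold-change -1.46, interval -1.62 to -1.29). That call was lost under TMM (-0.86) and with the trends removed (-0.47). In the Huh7 pair HK2 was higher in Huh7-C by 0.69 (0.47 to 0.91), below the 2-fold limit. HK1 held 70.2% of the HK1 and HK2 level in Huh7 and 52.0% in Huh7-C.

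HKDC1, a further hexokinase outside the list, changed the view of the family and was added after its values were seen. It had 20.7 CPM in Hep3B and 92.2 in Hep3B-C, against 72.9 in Huh7 and 62.5 in Huh7-C, and was up-regulated in Hep3B-C by 2.14 on the log2 scale (1.76 to 2.57), or 2.42 with the trends removed. With it, HK2 held 87.9% of the length-scaled hexokinase level in Hep3B and 37.3% in Hep3B-C, while HKDC1 held 12.1% and 62.6%. In counts not divided by length HK2 still led in Hep3B-C, at 53.3% against 46.6% for HKDC1. The log2 fold-change of HK2 in the Hep3B pair was -0.016 with the length trend alone removed. The summed hexokinase level of the pair was 46.5 and 39.9 RPKM. In Huh7 and Huh7-C, HK1 held 42.6% and 33.5%, HK2 18.1% and 30.9%, and HKDC1 39.3% and 35.7%.

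**Figure D3:**
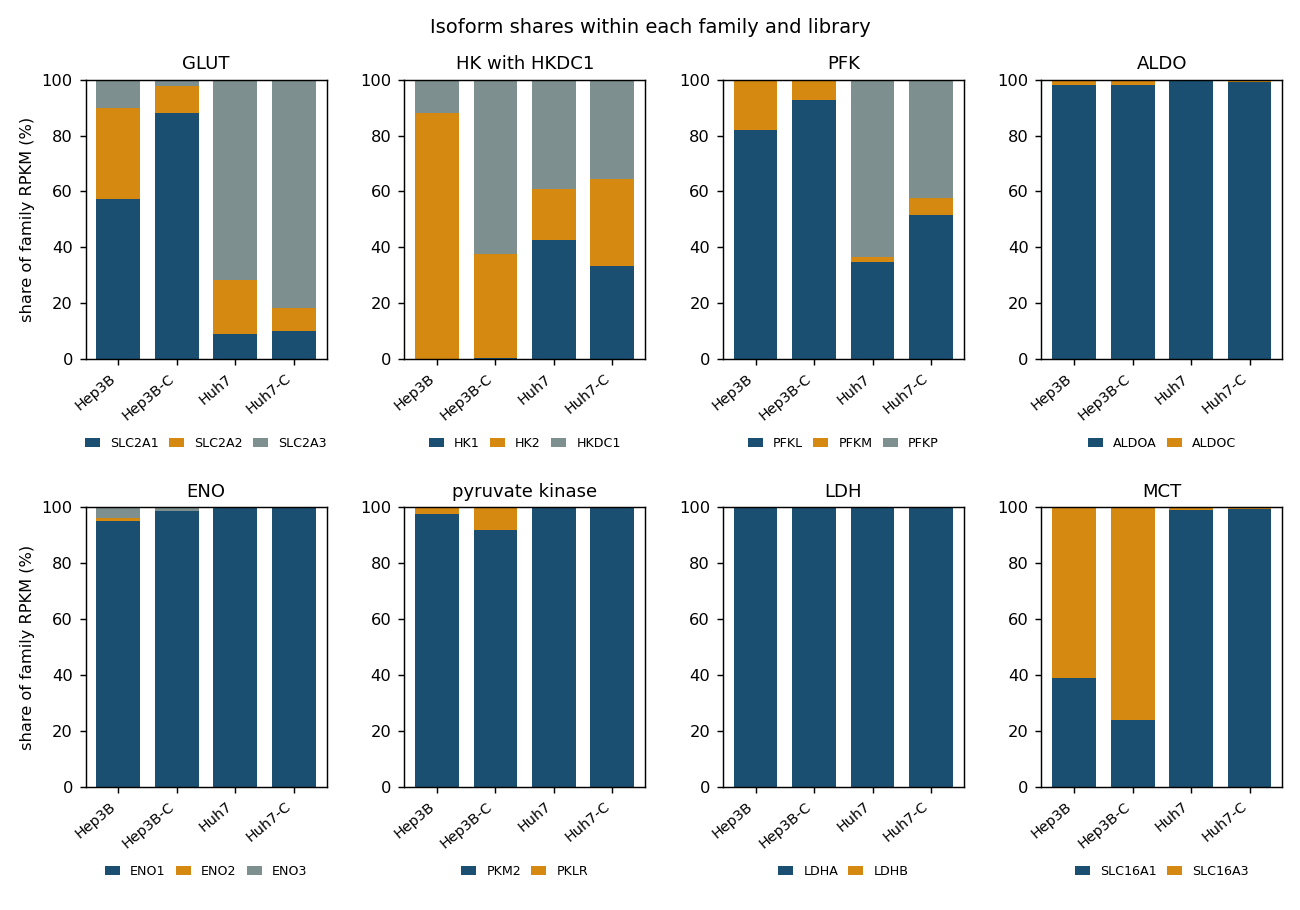
Stacked bars give each gene's share (vertical axis, percent) of the summed RPKM of its family in the 4 libraries (horizontal axis), for the glucose transporters (GLUT), hexokinases with HKDC1, phosphofructokinases, aldolases, enolases, pyruvate kinases, lactate dehydrogenases and lactate transporters (MCT). The GLUT, PFK and MCT bars have another leading gene in the Huh7 than in the Hep3B lineage (Huh7-C apart for PFK). The hexokinase bars turn from HK2 to HKDC1 within the Hep3B pair, though not in counts undivided by length, and LDHA fills the LDH bars.

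GPI, which turns glucose 6-phosphate into fructose 6-phosphate, had 439 CPM in Hep3B and 1140.3 in Hep3B-C, against 1238 in Huh7 and 1320.5 in Huh7-C. It was up-regulated in Hep3B-C (1.38, interval 1.29 to 1.47), but was below 2-fold at 0.74 with the trends removed. Phosphofructokinase commits the sugar to glycolysis. Its liver form PFKL had 81.8 CPM in Hep3B and 211 in Hep3B-C (1.37, interval 1.16 to 1.58, and 0.66 with the trends removed), and 175 and 176 in the Huh7 pair. The muscle form PFKM lay between 8.82 and 17.5 CPM in the 4 libraries and was not called. In the Huh7 pair its fold-change was just under the limit at 0.98 (0.42 to 1.58), and was called up at 1.03 with the trends removed. The platelet form PFKP had 247 CPM in Huh7 and 112 in Huh7-C, a down-regulation of -1.14 (-1.30 to -0.98) that stood at -1.09 with the trends removed. PFKP held 63.4% of the phosphofructokinase level in Huh7 and 42.5% in Huh7-C, PFKL 34.5% and 51.5%. In the Hep3B pair PFKL held 82.2% and 92.9%.

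Aldolase cleaves the 6-carbon sugar. ALDOA, the common form, had 2301 CPM in Hep3B and 5787 in Hep3B-C, against 4041 in Huh7 and 3649 in Huh7-C. It was up-regulated in Hep3B-C (1.33, interval 1.29 to 1.37), and this fell to 0.39 with the trends removed. ALDOC, a form best known from brain, had 31.8 CPM in Hep3B and 78.4 in Hep3B-C, and 1.98 in Huh7 and 17.8 in Huh7-C (9 and 77 counts). It was up-regulated in both lines, by 1.30 (0.97 to 1.65) and 3.09 (2.16 to 4.35). The Huh7 value was 3.32 with the trends removed and the Hep3B value 0.66, below the limit. ALDOC made up a small part of the family throughout, 1.89% and 1.86% of the aldolase level in the Hep3B pair and 0.0685% and 0.675% in the Huh7 pair.

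In the middle of the pathway, TPI1 and GAPDH were up-regulated in Hep3B-C and not in Huh7-C. TPI1, which interconverts the triose phosphates, had 554 CPM in Hep3B against 2411, 2333 and 2014 in Hep3B-C, Huh7 and Huh7-C. Its log2 fold-change was 2.12 (2.05 to 2.20) in the Hep3B pair, 1.50 with the trends removed and still called, and -0.21 in the Huh7 pair. GAPDH, the dehydrogenase often used as a reference gene, had 5464 CPM in Hep3B and 17314 in Hep3B-C, against 15762 in Huh7 and 12644 in Huh7-C. It was 3.17-fold higher in Hep3B-C (log2 1.66, interval 1.64 to 1.69), which became 0.77 and lost the call with the trends removed, and -0.32 in the Huh7 pair. PGK1, the kinase of the next step, was called in neither pair. It had 358 CPM in Hep3B and 289.8 in Hep3B-C, and 2598 and 2424 in the Huh7 pair, with fold-changes of -0.31 and -0.10. With the trends removed its value in the Hep3B pair turned to 0.73, close to that of GAPDH. The GC content of PGK1 was 43.3%, against 55.1% for TPI1 and 56.3% for GAPDH.

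PGAM1, the mutase, had 109 CPM in Hep3B and 232 in Hep3B-C (1.09, interval 0.90 to 1.27, and 0.79 with the trends removed), and 761 and 737 in the Huh7 pair. ENO1, the general enolase, had 937 CPM in Hep3B and 4459 in Hep3B-C, against 4230.1 in Huh7 and 5041 in Huh7-C. It was up-regulated in Hep3B-C by 2.25 (2.19 to 2.31), or 1.43 with the trends removed, and not called in Huh7-C (0.25). ENO2, the neuronal form, had 15.2 and 16.2 CPM in the Hep3B pair, and 0 counts in Huh7 and 1 in Huh7-C. ENO3, the muscle form, had 31.4 and 42.2 CPM in the Hep3B pair, and 10.8 and 3.23 in the Huh7 pair (49 and 14 counts). ENO3 was down-regulated in Huh7-C (-1.71, interval -2.71 to -0.86). ENO1 held 95.1% of the enolase level in Hep3B and 98.6% or more in the other 3 libraries.

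Pyruvate kinase makes pyruvate and ATP. PKM2, here the whole gene with its M1 and M2 splice forms together, had 1117 CPM in Hep3B and 2022 in Hep3B-C, against 2883 in Huh7 and 2803 in Huh7-C. Its fold-change of 0.86 (0.80 to 0.91) in the Hep3B pair missed the 2-fold limit, and passed it under TMM (1.45), but was 0.27 with the trends removed. PKLR, the liver and red cell form, had 28.7 CPM in Hep3B and 204.7 in Hep3B-C, and 3.31 and 8.08 in the Huh7 pair (15 and 35 counts). It was up-regulated in Hep3B-C 7.10-fold (log2 2.83, interval 2.51 to 3.18), or by 2.52 with the trends removed. In Huh7-C its fold-change of 1.26 (0.38 to 2.27) did not pass the FDR. PKLR held 2.20% of the pyruvate kinase level in Hep3B and 8.17% in Hep3B-C, and 0.101% and 0.253% in the Huh7 pair, shares that were added after the data were seen.

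The lactate step was down-regulated in Hep3B-C and not called in Huh7-C. LDHA, the form that favours lactate, had 2266 CPM in Hep3B and 469.8 in Hep3B-C, and 2508 and 2245 in Huh7 and Huh7-C. Hep3B-C was the low library, and the other 3 lay within 2245 and 2508 CPM. The log2 fold-change was -2.27 (-2.34 to -2.20) in the Hep3B pair, -1.24 and still called with the trends removed, and -0.16 in the Huh7 pair. LDHA has a low GC content of 42.4%. LDHB, the form that favours pyruvate, had 0 counts in Hep3B and 4 in Hep3B-C, against 0 in Huh7 and 1 in Huh7-C, so that LDHA held at least 99.7% of the family level everywhere. A count of 0 allowed LDHB a share of the family's counts of up to 0.0457% in Hep3B and 0.0264% in Huh7.

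Lactate leaves through the monocarboxylate transporters. SLC16A1 (MCT1) had 63.2 and 70.4 CPM in the Hep3B pair and 222 and 291 in the Huh7 pair, and was called in neither. With the trends removed it stood at 1.73 in the Hep3B pair and was called. SLC16A3 (MCT4), the exporter typical of glycolytic cells, had 52.5 CPM in Hep3B and 117 in Hep3B-C, but 5 counts in Huh7 and 3 in Huh7-C. Its up-regulation in Hep3B-C of 1.16 (0.90 to 1.43) became -0.0019 with the trends removed, and its GC content of 64.3% was among the highest of the list. SLC16A3 held 61.3% and 76.0% of the level of the pair of transporters in Hep3B and Hep3B-C, and 0.937% and 0.45% in Huh7 and Huh7-C.

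The 6 pentose phosphate genes took a larger share of the counts in each HCSC line than in its parent. They took 0.0345% of the gene counts in Hep3B and 0.167% in Hep3B-C, and 0.1001% in Huh7 and 0.174% in Huh7-C. The median log2 fold-change of the 6 was 1.31 in the Hep3B pair, with 4 up-regulated and 0 down-regulated, beside 13.2% and 30.4% of all genes. It was 0.68 in the Huh7 pair, with 2 up-regulated and 0 down-regulated, beside 4.19% and 4.15%. In the Hep3B pair 2 of the 6 were called up with the length trend removed, beside 2669 of 15480 genes. With both trends removed 3 of the 6 were called up, beside 11.5% of all genes. Of the oxidative branch, PGLS had 25.5 and 46.5 CPM in the Hep3B pair and 73.2 and 59.5 in the Huh7 pair, and was not called (0.86 and -0.30). In the Hep3B pair PGLS was called up under TMM (1.45) and with DESeq2 size factors (1.54), and turned to -0.74, not called, with the trends removed. PGD, the enzyme that makes NADPH and ribulose 5-phosphate, had 96.7 CPM in Hep3B and 731 in Hep3B-C, against 288 in Huh7 and 568 in Huh7-C. PGD was 7.55-fold higher in Hep3B-C (log2 2.92, interval 2.74 to 3.10, and 2.70 with the trends removed). In Huh7-C it lay just under the limit at 0.98 (0.88 to 1.08), and over it at 1.17 with the trends removed.

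The non-oxidative branch rearranges sugars between the pathways. TKT, transketolase, had 107.7 CPM in Hep3B and 637 in Hep3B-C, against 359 in Huh7 and 800.2 in Huh7-C. It was up-regulated in both lines, by 2.56 (2.40 to 2.74) and 1.16 (1.07 to 1.24), and with the trends removed by 2.03 and 1.16, so both calls stood. RPIA, which makes ribose 5-phosphate, rested on few counts, 15 and 56 in the Hep3B pair and 24 and 58 in the Huh7 pair. RPIA was up-regulated by 1.19 (0.38 to 2.15) and 1.32 (0.63 to 2.09), and by 1.46 and 1.50 with the trends removed. TALDO1, transaldolase, had 81.8 and 221 CPM in the Hep3B pair (1.43, interval 1.23 to 1.64, and 0.72 with the trends removed), and 257 and 273 in the Huh7 pair. RPE, the epimerase, had 28.3 and 19.8 CPM in the Hep3B pair and 18.7 and 24.5 in the Huh7 pair, and was called in neither.

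The pyruvate dehydrogenase complex was not called in either pair. PDHA1, its catalytic E1 alpha subunit, had 38.3 and 42.2 CPM in the Hep3B pair and 93.2 and 78.0 in the Huh7 pair. PDHB, the E1 beta subunit, had 30.4 and 29.5 CPM, and 68.8 and 73.6. DLAT, the E2 core, had 79.4 and 58.8 CPM, and 149 and 138. With the trends removed PDHA1 (1.18) and DLAT (1.09) were called up in the Hep3B pair. The direction of small changes in that pair depended on the scaling, since under TMM the fold-changes of PGK1, PFKM, RPE, PDHB and DLAT turned from -0.31, -0.14, -0.52, -0.04 and -0.43 to 0.29, 0.45, 0.08, 0.55 and 0.16.

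**Figure D4:**
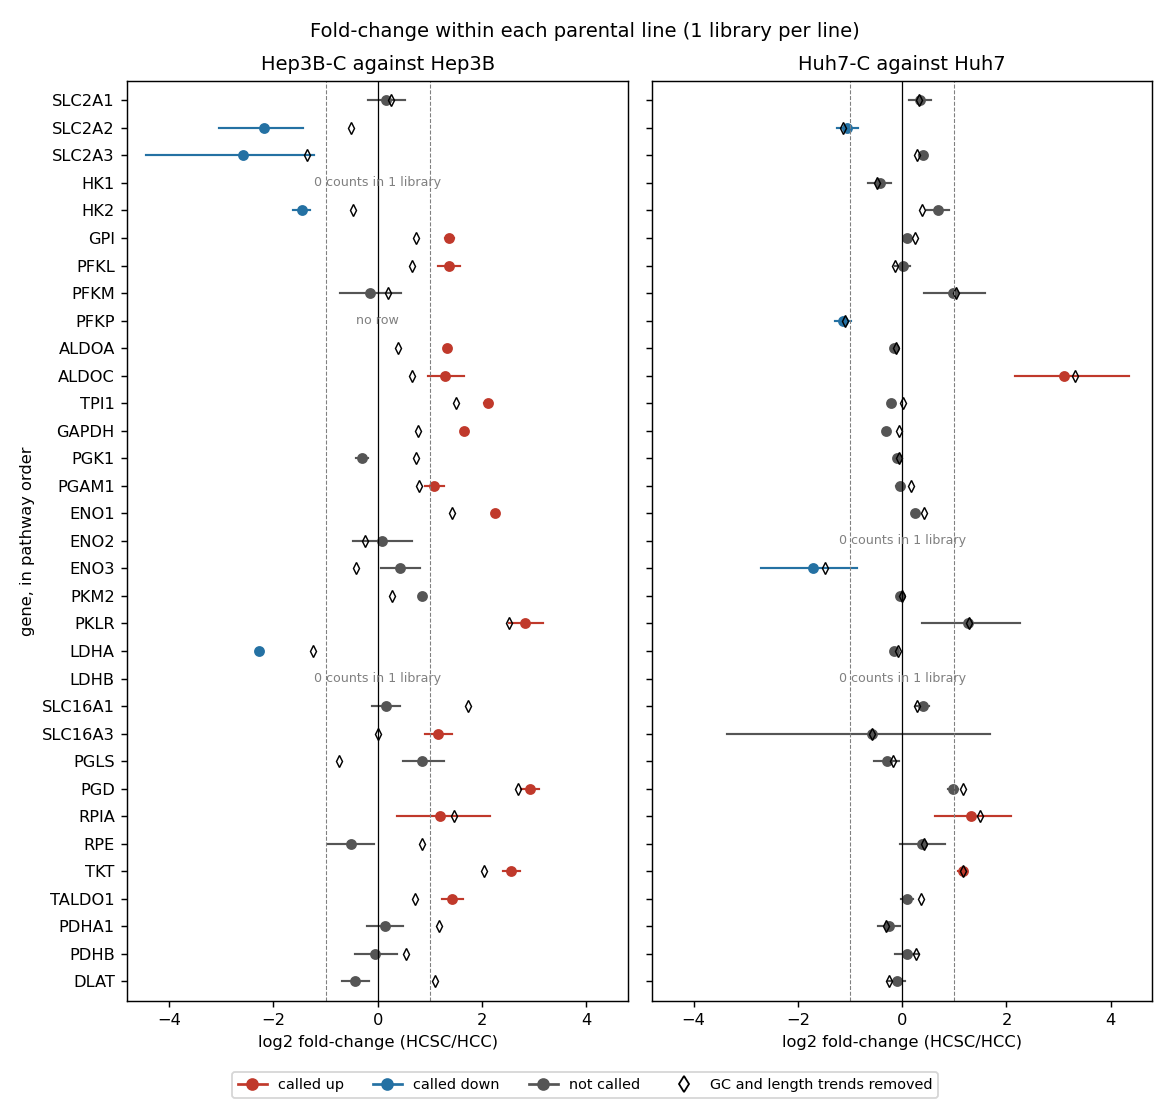
Log2 fold-change HCSC/HCC (horizontal axis) of each listed gene (vertical axis, pathway order) in the Hep3B pair (left) and the Huh7 pair (right), as dots with 95% counting intervals, coloured by call, with open diamonds for the value after removal of the GC and length trends and dashed lines at the 2-fold limit. Left, 14 red dots lie beyond the limit and 11 of the 18 coloured genes have a diamond that is no longer called. Right, most dots lie close to 0, with ALDOC at 3.09 farthest out.

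By role, the glycolytic enzymes from hexokinase to pyruvate kinase had 9 up-regulated and 1 down-regulated of 16 in the Hep3B pair (median 1.19), and 1 up-regulated and 2 down-regulated of 17 in the Huh7 pair (median -0.04), beside 13.2% up and 30.4% down, and 4.19% and 4.15%, of all genes. With the trends removed, 3 of the 16 were up-regulated and 0 down-regulated in the Hep3B pair (median 0.70), beside 11.5% and 11.6% of all genes. The 5 transporters had 1 up and 2 down in the Hep3B pair, and 0 up and 1 down in the Huh7 pair. Split at a GC content of 50%, a choice made after the data were seen, 13 of 21 GC-rich listed genes (61.9%) were up-regulated in Hep3B-C, beside 25.4% of all such genes. Of the 11 with less GC, 1 was up-regulated and 3 were down-regulated, beside 2.10% and 48.4% of all such genes. In Huh7-C, 2 of 22 GC-rich listed genes were up-regulated and 2 down-regulated, beside 3.55% and 4.62% of all such genes, and 1 of 11 with less GC was up-regulated and 1 down-regulated, beside 4.88% and 3.75%.

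Several of these genes (GAPDH, TPI1, PGAM1, PGK1, ENO1, LDHA) have processed copies elsewhere in the genome. How reads matching more than 1 place were counted was not stated, so their absolute levels are uncertain. Endothelial PECAM1 (17 counts in Huh7, 93 in Huh7-C), the fibroblast genes COL3A1 (0 and 58) and PDGFRB (186 and 2), and AFP (16175 counts in Hep3B, 4201 in Hep3B-C) also differed within a pair, and their part in the results above was not tested.

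The neighbouring genes of the same pathways, a list of 51 names of which 44 had a row, are given as counts beside the share of all genes. In Hep3B-C, 8 of 43 were up-regulated and 13 were down-regulated (13.2% and 30.4% of all genes), and in Huh7-C, 1 of 41 was up-regulated and 3 were down-regulated (4.19% and 4.15%). The share called down in Hep3B-C lay close to that of all genes. In the Hep3B pair TMM gave 12 up and 6 down (21.6% and 18.1% of all genes). Removal of the trends gave 10 up and 3 down (11.5% and 11.6%). PGAM2, the muscle mutase, went from 35 to 1337 counts in the Hep3B pair (4.56, interval 4.09 to 5.10, and 2.98 with the trends removed), against 5 and 9 counts in the Huh7 pair.

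PDK1 and PFKFB3, which regulate entry to the mitochondrial cycle and phosphofructokinase, were down-regulated in Hep3B-C. PDK1, a kinase that switches off pyruvate dehydrogenase, had 87.3 CPM in Hep3B and 10.8 in Hep3B-C (-3.01, interval -3.49 to -2.58, and -1.28 with the trends removed), and 20.7 and 19.8 in the Huh7 pair. PFKFB3, which makes the activator of phosphofructokinase, had 51.4 and 7.76 CPM (-2.71, and -2.57 with the trends removed), and 18.1 and 10.6. BPGM had 19.7 and 6.03 CPM in the Hep3B pair (-1.69), not called with the trends removed (-0.81).

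PDK4, the starvation-induced kinase of the same complex, was called in opposite directions, on 14 and 1 counts in the Hep3B pair (-3.95, interval -9.89 to -1.77) and 14 and 83 in the Huh7 pair (2.59, interval 1.81 to 3.57). Its call in the Hep3B pair was lost with the trends removed (-2.29). SLC2A12, a glucose transporter, was down-regulated in both pairs on 21 and 5, and 37 and 9 counts (-2.65 and -1.91), the first not called with the trends removed (-0.77). In Huh7-C, LDHD, a D-lactate dehydrogenase, went from 94 to 24 counts (-1.88), and BRP44, now MPC2, a subunit of the mitochondrial pyruvate carrier, from 1122 to 495 (-1.11, and -0.83 with the trends removed, not called).

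Over both lines together (edgeR quasi-likelihood test with the parental line as a block), 0 of 32 listed genes passed an adjusted p of 0.05, and 4 and 5 of 11691 genes did so up and down (0.0342% and 0.0428%). The lowest adjusted p of a listed gene was 0.999. Without adjustment, 4 of the 32 had a p under 0.05 (ALDOC, PKLR, PGD and TKT, with joint log2 fold-changes of 2.33, 2.30, 2.11 and 2.03), beside 3.18% of all genes, and by DESeq2 0 passed and 5 had such a p. The fit had 1 residual degree of freedom and a common biological coefficient of variation of 0.514.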

How the data were processed

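Whole-number read counts per gene were deposited for the 4 libraries, with gene ID, symbol, length and ontology terms. The authors trimmed adapters, dropped low-quality reads, mapped the rest with NextGENe (human NCBI genome, a build older than GRCh38) and counted reads per transcript. The aligner's version, strand use and the handling of reads with several matches were not given in the sources used here. The study worked with RPKM, which was recomputed here from count, deposited length and total gene count.

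In each file 8 lines carried no numeric gene ID (0.0120% to 0.0391% of counts). They were kept among the genes tested and in the total gene counts. Genes with no count in both lines of a pair are not listed, and were taken as 0 in the joint fit.

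Each HCSC line was compared with its parent by the Audic-Claverie test on counts (two-sided, Benjamini-Hochberg FDR over all 15480 or 14807 genes, called at 0.01 and 2-fold). This follows the study's Poisson-based test and limits, but did not reproduce its numbers of called genes. The study reported far more called genes in Huh7-C, and more shared by both HCSC lines, than were found here. In Hep3B-C it reported somewhat fewer. The reason for these differences was not tested. Log2 fold-changes used counts plus 0.5 per total gene count, with exact 95% counting intervals. Intervals and floors (3 counts) cover counting error only. The joint test was edgeR 4.0.16 (quasi-likelihood, TMM, filterByExpr, parental line as block). Deviations of lines of the same parent correlated (Pearson 0.6162 over 11691 genes), and the pairing comes from the labels.

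Alternatives were TMM and DESeq2 1.42.0 size factors, removal of length, or GC and length, trends (splines with 5 knots over genes with at least 20 counts), other added counts, count filters, an exact binomial test and edgeR's exact test with an assumed coefficient of variation. GC content came from GENCODE release 29 transcripts joined by Entrez ID (98.0% and 98.2% of genes), and promoters from RefSeq by the same ID. The tests were checked on simulated counts. Python 3.11.15, scipy 1.17.1, pandas 2.3.3 and R 4.3.3 were used.

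The listed genes, the neighbouring genes and the tests were chosen with earlier results of these data known. All listed genes are named. Neighbouring genes are named where they were called in both pairs, or were the 3 strongest calls per direction and pair with at least 50 counts in 1 library. Not all of these are reported here.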

Additional observations from a re-analysis of the deposited data

Results flagged for a closer look

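In 8 of the listed genes the fold-change had opposite signs in the 2 pairs, with a counting interval that left out 0 in each pair. The share of all genes that met this rule was not computed, so 8 cannot be read as many or few. With 1 library per line the difference between the pairs was not tested against the spread between cultures. The difference is given as the log2 fold-change of the Hep3B pair minus that of the Huh7 pair. It was -2.97 for SLC2A3 and -2.14 for HK2, both lower in Hep3B-C and higher in Huh7-C than in the parent. It was 1.48 for ALDOA, 2.33 for TPI1, 1.98 for GAPDH, 0.896 for PKM2, 1.16 for PGLS and 2.13 for ENO3, all higher in Hep3B-C and lower in Huh7-C. With the GC and length trends removed, TPI1 had 1.50 and 0.02, ENO3 -0.42 and -1.48, and PGLS -0.74 and -0.17, so these 3 no longer had opposite signs. SLC2A3 (-1.36 and 0.29), HK2 (-0.47 and 0.38), ALDOA (0.39 and -0.12), GAPDH (0.77 and -0.06) and PKM2 (0.27 and -0.01) still did. The -0.01 of PKM2 in the Huh7 pair was smaller in size than its standard error from counting, 0.018.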

How the results depend on the processing

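The alternatives were run on the counts of calls, the medians and the fold-changes of each listed gene. Of all 15480 genes of the Hep3B pair, 2734 were called down with the length trend removed and 2553 with DESeq2 size factors. Shares of all genes under TMM and with both trends removed are given above. For the assumed coefficients of variation no share of all genes is given, so those counts cannot be read as many or few. In the Hep3B pair the listed genes called up were 9 with the GC and length trends removed and 0 with an assumed coefficient of variation of 0.4, and those called down were 2 with the length trend removed, 1 with both trends removed and 0 with 0.4. Their median log2 fold-change was 1.48 under TMM, 1.56 with DESeq2 size factors, 0.99 with the length trend removed, 0.73 with both trends removed and 0.59 with 5 added to each count. The neighbouring genes called down were 6 under TMM, 5 with DESeq2 size factors, 5 with the length trend removed, 3 with both removed, 6 with a coefficient of 0.2 and 0 with 0.4, and those called up were 2 with 0.4. In the Huh7 pair the listed genes called up were 5 with both trends removed, 1 with 0.2 and 0 with 0.4, and those called down were 0 with 0.2 and 0 with 0.4. The neighbouring genes of that pair called up were 0 with 0.4, and those called down 0 with 0.2 and 0 with 0.4. The median of the listed genes was 0.20 with the length trend removed and 0.24 with both. For SLC16A3 in the Hep3B pair the sign reversed (-0.0019 with both trends removed). The ALDOA share in Huh7-C minus that in Huh7 was -0.44 percentage points when counts were not divided by length, against -0.61 when they were. The causes were not tested.

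In the joint fit, no replicate block gave 0 genes up and 0 down, against 4 and 5 with it. The total gene count as library size gave 3 down and no filter on low counts gave 8 down. Leaving out 1 library leaves no residual degree of freedom with the block. Without the block, and with the lone sample of a group assumed to vary like the other group, the genes called ranged from 0 to 11 up and from 0 to 18 down, and the listed genes called from 0 to 1 (PFKP, without Huh7-C). The 11 up came without Huh7-C and the 18 down without Hep3B-C.

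Depth limited LDHB, HK1 and ENO2 in the pairs where they had 0 to 4 counts, and RPIA, PKLR in the Huh7 pair and SLC2A3 in the Hep3B pair rested on under 60 counts. RPIA in the Hep3B pair was not called with the length trend removed or with 5 added to each count.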
